A study of Mus musculus with 24 samples.

Results

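Kinesins, dyneins, dynactins and tubulins are the motors and tracks of intracellular transport along microtubules. Members were the genes whose symbol on the array platform named a kinesin (Kif or Klc), a dynein chain (Dync or Dynl), a dynactin subunit (Dctn) or an alpha, beta or gamma tubulin (Tuba, Tubb or Tubg). The rule found 69 of the 19057 gene symbols on the array, and it used no measured value. They comprise 5 genes of conventional kinesin-1, 4 of kinesin-2, 6 cargo motors of kinesin-3, 10 mitotic kinesins, 10 other kinesins, 7 chains of the dynein motor body, 6 dynein light chains, 6 dynactin subunits, 6 alpha tubulins, 8 beta tubulins and 1 gamma tubulin.

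The samples were 24 single-colour Illumina mouse arrays of FVB mice at postnatal day 4, in 8 groups of 3 biological replicates. SMA mice, read here as a model of spinal muscular atrophy, were set against wild-type (WT) mice in the dorsal root ganglion (DRG), the raphe, the lateral motor column (LMC) and the medial motor column (MMC) of the spinal cord. The Smn allele of the SMA mice, and the way in which cells or tissue were taken, are not given in the sources used here. RNA came from small samples, and its cDNA was amplified before labelling. Each tissue lay on 1 slide that held its SMA and WT arrays, so tissue and slide cannot be told apart, while genotypes are compared within a slide. Position on the slide goes with genotype.

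Axons are filled with parallel microtubules built from alpha and beta tubulin. Kinesins carry vesicles, mitochondria and cytoskeletal cargo outwards, and cytoplasmic dynein, with its cofactor dynactin, carries signalling endosomes and worn organelles back to the cell body. Motor and sensory neurons have very long axons and depend on both directions of traffic. In humans, mutations in KIF5A, DYNC1H1, DCTN1 and TUBA4A cause motor neuron or axon disease.

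Smn1, which encodes the survival motor neuron protein, was above background on 0 of the 3 SMA arrays and on all 3 WT arrays of every tissue. Its mean log2 level lay between 4.50 and 4.78 in the SMA groups and between 9.76 and 10.1 in the WT groups. The share of probes above background, meaning a detection p under 0.05, ranged from 33.7 to 49.7% over the arrays. The second SMA LMC array had the lowest share and the lowest mean correlation with the other arrays of its group, 0.850. The third WT MMC array had a share of 38.2% and a correlation of 0.853, the lowest of its tissue. Several values that rest on these arrays are also given below without them. Of 10 motor neuron markers, 9 and 10 were above background on all arrays of SMA and WT LMC, and likewise 9 and 10 in SMA and WT MMC. Of 7 serotonergic markers, 6 were above background on all arrays of each raphe group and 0 on all arrays of either MMC group. They numbered 2 and 1 in SMA and WT LMC and 2 and 3 in SMA and WT DRG. Of 9 sensory markers, 7 were above background on all arrays of each DRG group, 4 in each motor column group and 3 in each raphe group. Motor neuron markers numbered 6 in each DRG group, and 4 and 5 in SMA and WT raphe. Glial markers were present in all tissues, so the samples held other cells beside neurons.

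Promoters are shown for the 3 members whose levels differed among WT tissues with the smallest p-values and that have a single listed start site. Each covers 250 bases before and 50 bases after the start, from RefSeq on GRCm38.p6, and capitals mark the GC box, GGGCGG on either strand. Tuba4a lies at chr1:75219245-75219544, Kif21a at chr15:91049902-91050201 and Dynlt3 at chrX:9662934-9663233, all on the minus strand.
Tuba4a: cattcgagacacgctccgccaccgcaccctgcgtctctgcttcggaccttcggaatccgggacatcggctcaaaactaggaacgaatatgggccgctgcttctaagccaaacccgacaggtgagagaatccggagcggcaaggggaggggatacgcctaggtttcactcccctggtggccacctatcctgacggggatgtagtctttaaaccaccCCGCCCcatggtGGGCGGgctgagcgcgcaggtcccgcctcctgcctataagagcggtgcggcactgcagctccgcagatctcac
Kif21a: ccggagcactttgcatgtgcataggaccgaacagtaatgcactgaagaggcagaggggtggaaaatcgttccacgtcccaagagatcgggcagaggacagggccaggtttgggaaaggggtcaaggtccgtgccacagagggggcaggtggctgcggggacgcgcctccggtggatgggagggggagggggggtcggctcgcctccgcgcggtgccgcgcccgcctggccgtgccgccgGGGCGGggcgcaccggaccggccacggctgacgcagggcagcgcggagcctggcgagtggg
Dynlt3: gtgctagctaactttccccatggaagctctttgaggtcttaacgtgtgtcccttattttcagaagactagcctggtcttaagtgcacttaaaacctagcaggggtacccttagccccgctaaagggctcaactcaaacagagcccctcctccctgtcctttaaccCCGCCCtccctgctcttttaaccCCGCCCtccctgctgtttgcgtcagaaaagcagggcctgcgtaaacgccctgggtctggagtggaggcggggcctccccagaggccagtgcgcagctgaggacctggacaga
The 3 windows held 2, 1 and 2 GC boxes in the order shown. None held the TATA box, spelled TATAAA, the CCAAT box, or the cAMP response element, spelled TGACGTCA. All were searched on both strands, and no motif is contained in another. Of the 69 members 55 had a listed promoter, with 62 start sites in all. A GC box was present in 66.1% of these windows, against 35.7% of all 32851 windows, and the median GC content was 60.8% against 52.7%. The cAMP response element was present in 9.68% of member windows and 1.79% of all windows. The CCAAT box was present in 40.3% and 37.4%, and the TATA box in 11.3% and 13.6%. These are matches of letters and were not tested.

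Of the 69 members, 57 were detected in at least 1 group, meaning above background on its 3 arrays. The other 12 were not. They were the mitotic kinesins Kif18a, Kif18b, Kif2c and Kif4, the kinesins Kif2b, Kif7, Kif9, Kif12, Kif13a, Kif17 and Kif26a, and the light chain Dynlrb2. Levels are log2 intensities after background correction and quantile normalization, and a difference is SMA minus WT, or the first tissue named minus the second. A gene was tested if it was so detected in 1 or more groups of the comparison, so a member tested through 1 group only could lie at background in the other. Adjusted p-values are from limma, adjusted over all genes tested, with a threshold of 0.05. In samples of mixed cells, fewer cells of a type and less RNA per cell cannot be told apart.

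Among the 4 SMA tissues, 31 of the 56 members tested differed in limma's F test, or 55.4%, against 51.7% of all genes tested. Among the WT tissues, which were measured on other arrays of the same slides, 23 of 56 members passed, or 41.1% against 39.8% of all genes. Both shares of members were near those of all genes. Of the members that passed, 20 were shared, which is 64.5% of the SMA list and 87.0% of the WT list. The overlap over all genes was not computed. Dctn4, Dynll1 and Tubb5 passed in WT tissues and missed the threshold in SMA tissues.

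**Figure D1:**
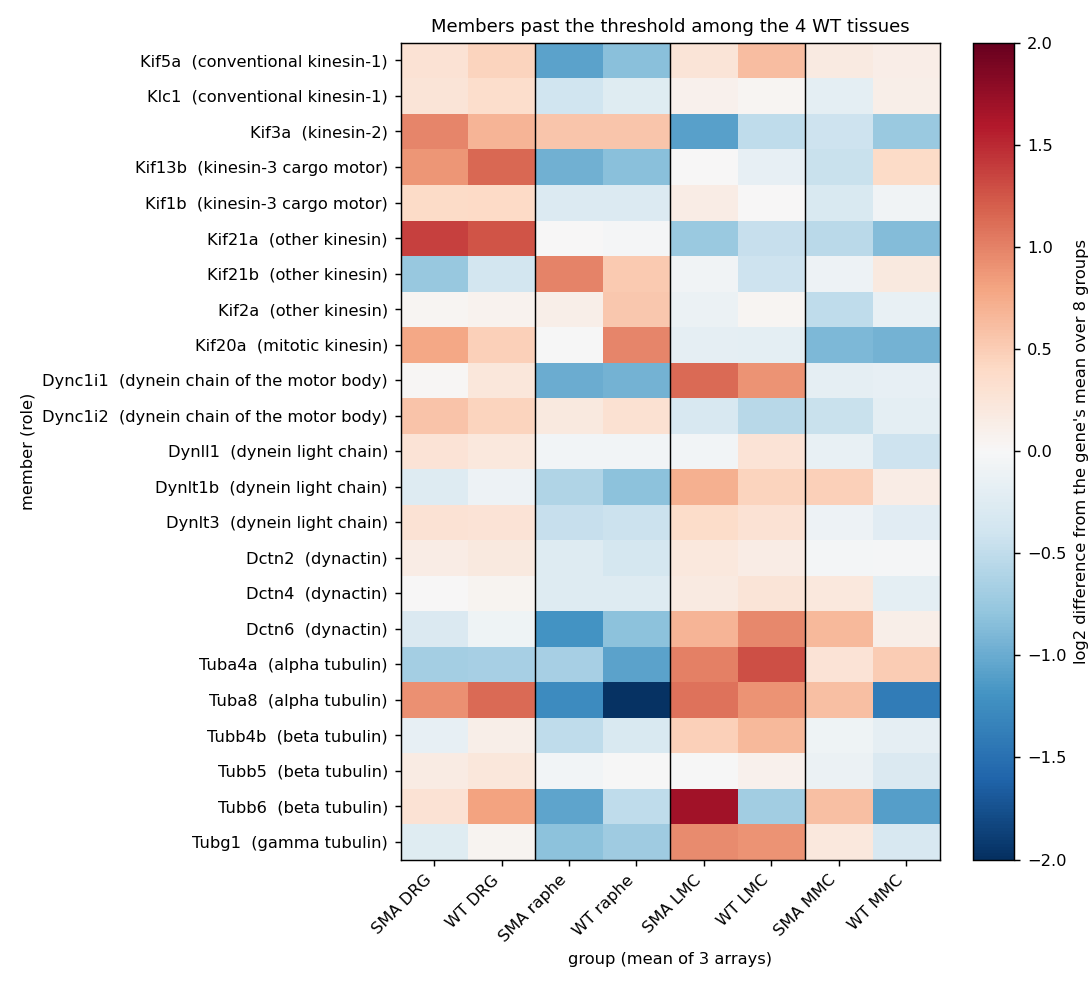
Group means of the 23 members that differed among the WT tissues, each as a log2 difference from the gene's mean over the 8 groups (red higher, blue lower), with SMA left of WT in each tissue. SMA and WT columns of a tissue look alike for most members, Tuba4a is high in both motor columns, Kif21a is high in DRG, and Tubb6 differs in colour between SMA and WT motor columns.

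Tuba4a encodes an alpha tubulin that is made without the C-terminal tyrosine of most other alpha isotypes. It had the smallest p among the WT tissues (adjusted p = 2.36e-08). Its levels were 9.15, 9.15 and 8.59 in WT DRG and 8.64, 8.83 and 8.17 in WT raphe, against 10.95, 10.89 and 10.90 in WT LMC and 10.11, 10.49 and 9.82 in WT MMC. Every motor column array stood above every DRG and raphe array. Tuba4a was lower in DRG than in the motor columns by a log2 difference of -1.56 ± 0.186 (SE, adjusted p = 8.31e-07) and lower in raphe by -1.98 ± 0.186 (adjusted p = 5.21e-08). It was higher in LMC than in MMC by 0.77 ± 0.215 (adjusted p = 0.0470). The order LMC, MMC and then the other tissues held in SMA mice, with means of 8.95 in DRG, 8.96 in raphe, 10.6 in LMC and 9.89 in MMC, and the DRG and raphe means did not differ beyond their spread. Against the motor columns the SMA differences were -1.31 in DRG and -1.30 in raphe.

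Kif5a, the neuronal heavy chain of conventional kinesin, had raphe levels of 10.88, 10.79 and 10.44 in WT mice, against 12.10, 12.24 and 12.12 in WT LMC and 11.42, 11.84 and 11.76 in WT MMC. The raphe arrays lay below all motor column arrays. The difference was -1.29 in SMA mice and -1.21 ± 0.175 (adjusted p = 2.27e-05) in WT mice. In WT DRG, where Kif5a averaged 12.0 ± 0.247 (SD, n = 3), it did not pass against the motor columns (0.07), while a pair of other Kif5a probes gave 1.17 and 1.06. In raphe these probes gave -0.28 and -0.32, and with the mean of all detected probes the raphe call was lost (-0.60, adjusted p = 0.123). The light chain Klc1, which links kinesin-1 to cargo, passed the F test in WT tissues (adjusted p = 0.0274), while Kif5b, Kif5c and Klc4 did not. In WT raphe against the motor columns the Klc1 probe used gave -0.32, while other Klc1 probes gave -0.24, 0.92, 1.32 and 0.16.

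Kif21a, a kinesin that restrains microtubule growth, was the member with the largest difference between DRG and motor columns in WT mice. It had 10.83, 11.34 and 11.30 in WT DRG and 9.79, 9.94 and 9.90 in WT raphe, against 9.56, 9.15 and 9.59 in WT LMC and 9.48, 9.74 and 7.88 in WT MMC. The third WT MMC array, which stands apart in other respects, was the lowest. Kif21a was higher in DRG by 2.01 in SMA mice and by 1.92 ± 0.276 (adjusted p = 1.18e-05) in WT mice.

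Kif1b, a kinesin-3 motor of synaptic vesicle precursors and mitochondria, spanned a narrow range. Its levels were 12.49, 12.42 and 12.33 in WT DRG, against 12.11, 12.00 and 11.96 in WT LMC and 12.04, 11.84 and 12.00 in WT MMC. The groups did not overlap, and the difference was 0.42 ± 0.0943 (adjusted p = 0.00173). It was 0.13 with median centring in place of quantile normalization, and the call was lost. Of 7 other Kif1b probes above background on at least 3 arrays, 6 were higher in DRG, by 0.46 to 1.29, and 1 was lower, by -0.22. Its relative Kif13b was higher in DRG (1.03, adjusted p = 0.0336) and lower in raphe (-0.95, adjusted p = 0.0434). Its 2 other probes, above background on 9 and 8 arrays, gave 0.16 and -0.004 in DRG and 0.06 and -0.36 in raphe. Without the third WT MMC array the Kif13b call in raphe was lost (-0.75, adjusted p = 0.0971).

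Kif3a, a motor subunit of kinesin-2 that moves cargo in axons and cilia, was higher outside the motor columns. It had 9.84, 10.45 and 10.91 in WT DRG and 10.40, 10.72 and 9.70 in WT raphe, against 9.14, 9.02 and 9.51 in WT LMC and 10.10, 8.90 and 7.95 in WT MMC. The WT MMC arrays spread widely and overlapped the others. Kif3a was higher in DRG by 1.30 ± 0.318 (adjusted p = 0.00394) and in raphe by 1.17 ± 0.318 (adjusted p = 0.00837). In SMA mice, where the groups did not overlap, the differences were 1.73 and 1.30. The other Kif3a probes gave smaller values of the same sign, 0.16 and 0.13 in DRG and 0.32 and 0.21 in raphe.

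**Figure D2:**
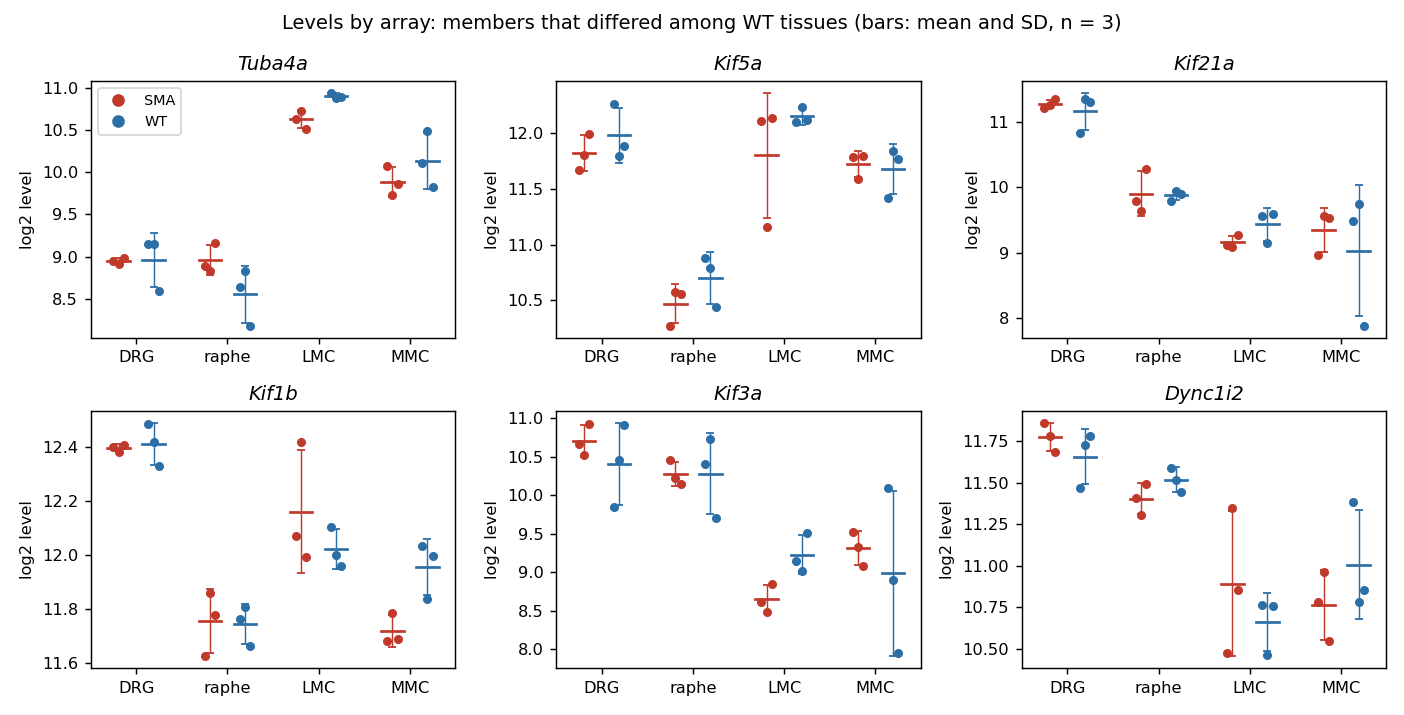
Log2 levels of 6 members that differed among WT tissues, 1 point per array, with SMA (red) left of WT (blue) in each tissue and bars for the mean and SD of 3 arrays. Tuba4a is higher in both motor columns than in DRG and raphe, Kif5a is lowest in raphe, and Kif21a is highest in DRG, in both genotypes.

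The 2 intermediate chains of dynein, which hold the motor to dynactin, had differences of opposite sign in raphe. Dync1i1, a form found mainly in neurons, had 6.02, 5.75 and 5.52 in WT raphe. It had 7.83, 7.59 and 7.42 in WT LMC and 5.75, 6.88 and 7.02 in WT MMC. It was lower in raphe than in the motor columns by -1.32 ± 0.342 (adjusted p = 0.00628), although the first WT MMC array lay within the raphe range. Another Dync1i1 probe, above background on 20 arrays, gave -0.14. Dync1i2, the widely expressed form, had 11.59, 11.52 and 11.44 in WT raphe and 11.47, 11.72 and 11.78 in WT DRG, against 10.77, 10.46 and 10.76 in WT LMC and 11.38, 10.78 and 10.86 in WT MMC. It was higher in raphe (0.68, adjusted p = 0.00309) and in DRG (0.82, adjusted p = 0.000462). Both of its other probes agreed in sign, with 1.25 and 2.36 in DRG and 0.65 and 1.66 in raphe. With median centring the Dync1i2 call in raphe was lost (0.29, adjusted p = 0.204). In SMA mice Dync1i2 differed by 0.57 in raphe and 0.95 in DRG, and Dync1i1 by -1.47 in raphe. The heavy chain Dync1h1, the ATPase of the motor, did not pass among WT tissues. In WT DRG it passed with array weights (0.69, adjusted p = 0.00133). It also passed there without the second SMA LMC array (0.58, adjusted p = 0.0258), which enters a WT contrast only through the shared estimate of the spread.

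Some light chains and dynactin subunits were lower in raphe by the probe used. Of all genes tested, 29% passed there and 16.7% passed as lower. Of 5 light chains tested in WT raphe against the motor columns, 3 were lower, namely Dynlt1b (-1.13, adjusted p = 0.00103), Dynlt3 (-0.46, adjusted p = 0.00926) and Dynll2 (-0.41, adjusted p = 0.0383). The other Dynll2 probe was higher by 1.23, in the opposite direction, and without the third WT MMC array the Dynll2 call was lost (adjusted p = 0.0526). Of 6 dynactin subunits, 2 were lower, namely Dctn6 (-1.36, adjusted p = 0.00560), a subunit of the pointed end, and Dctn2 (-0.41, adjusted p = 0.00743), also called dynamitin. Another Dctn2 probe, above background on 23 arrays, gave 0.54.

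Among tubulins, Tubb4b was lower in raphe (-0.54, adjusted p = 0.0229). Tuba8 was lower as well (-1.72, adjusted p = 0.0493), with WT raphe arrays between 5.30 and 7.87 and the third WT MMC array at 4.68, not above background. Another probe gave -1.47. Without the third WT raphe array the Tuba8 difference was -1.03 (adjusted p = 0.324), and without the third WT MMC array it was -2.37. Tubb5 was higher in DRG by 0.33 (adjusted p = 0.00825), but by -0.13 with median centring. Tubb3, Tubb2a, Tuba1b and Tubb4a passed in none of the WT tissue comparisons with all arrays and quantile normalization. For 3 of them this changed with the processing. Without the second SMA LMC array, Tuba1b passed in WT DRG (0.42, adjusted p = 0.000231) and in WT raphe (0.44, adjusted p = 0.000160), and Tubb4a in WT raphe (-0.71, adjusted p = 0.00576). With array weights Tuba1b and Tubb4a passed in both. With median centring Tubb2a passed as lower in both, and Tubb4a in raphe.

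Tubg1, the gamma tubulin that seeds new microtubules, passed the F test in WT tissues (adjusted p = 0.0323). It had 5.91, 7.17 and 6.57 in WT raphe, against 7.69, 8.46 and 8.31 in WT LMC and 6.92, 6.67 and 7.22 in WT MMC. WT DRG had 7.90, 7.14 and 6.91. The LMC arrays lay above those of MMC and raphe, but the first DRG array stood above the first LMC array. Raphe and MMC overlapped, and no single contrast passed in WT mice by the processing used. Tubg1 passed as lower in raphe with median centring (-1.06, adjusted p = 0.0417) and with the mean of all detected probes (-0.99, adjusted p = 0.0450). In LMC against MMC it passed with array weights (1.46, adjusted p = 0.0448). Kif21b, a relative of Kif21a, also passed the F test (adjusted p = 0.0210), with 10.66, 10.35 and 10.13 in WT raphe and 9.99, 9.47 and 9.01 in WT DRG, against 9.15, 9.84 and 9.33 in WT LMC and 10.15, 10.38 and 9.66 in WT MMC. Its raphe arrays overlapped those of MMC. The synaptic vesicle motor Kif1a varied little by the probe used, with WT group means between 12.0 and 12.2 and no contrast past the threshold. Its value in raphe against the motor columns was -0.16, while another probe, above background on 22 arrays, gave 0.85. With median centring Kif1a passed as lower in WT raphe (-0.56, adjusted p = 0.0132). The kinesin-2 motor Kif3c and the mitotic kinesins Kif11 and Kif23, which build the spindle and the midbody, passed in no WT contrast, and Kif11 had the lowest LMC minus MMC value of the members tested, -1.24 (adjusted p = 0.126). In SMA mice Kif23 was higher than in the motor columns in DRG (0.66, adjusted p = 0.0315) and in raphe (0.94, adjusted p = 0.00355), by the probe used. In WT mice this probe gave 0.0007 in DRG and 0.51 in raphe. Other Kif23 probes, above background on 5 and 15 arrays, gave -0.03 and 0.03 in WT DRG and 0.01 and 0.06 in WT raphe. Their SMA tissue differences are not given here. The mean level of the 10 markers of dividing cells lay between 5.40 and 6.26 on SMA arrays and between 5.45 and 6.12 on WT arrays.

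In total, 8 of 56 members passed in WT DRG against the motor columns, 7 higher and 1 lower. That is 14.3%, against 24.2% of all genes (11.5% higher, 12.7% lower). In WT raphe 15 of 54 passed, 4 higher and 11 lower, or 27.8% against 29% of all genes (12.4% higher, 16.7% lower). The members higher in raphe were Kif3a and Dync1i2, already described, the microtubule depolymerase Kif2a (0.59, adjusted p = 0.00599) and Kif20a, a kinesin of cytokinesis (1.54). Kif20a was above background on 3 of the 6 WT motor column arrays and was tested through raphe alone, as Tubb6 was through DRG alone among the 7. Other Kif2a probes gave 0.42 and -0.18, and the Kif2a call was lost with median centring (0.19), with the mean of all detected probes (0.28) and without the third WT raphe array (0.47, adjusted p = 0.0626). Both contrasts share the WT motor column arrays. Quantile normalization put the median of all genes at -0.11 in raphe against the motor columns, and median centring at -0.27. With median centring 2 members were higher and 20 lower in raphe, and 6 were higher and 4 lower in DRG. The shares of all genes with median centring are not given here.

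The same contrasts in SMA mice rest on other arrays of the same slides, so tissue and slide cannot be told apart there either. Arrays of both genotypes were normalized together, and the same agreement over all genes was not computed. Of the 15 members that passed in WT raphe, 15 had the same sign in SMA mice and 12 also passed. Of the 8 that passed in WT DRG, 7 had the same sign and the same 7 also passed. The exception was Tubb6, which is described below. In SMA mice 19 members passed in DRG (14 higher, 5 lower, background 36.4%, of it 16.1% higher and 20.3% lower). Of the 14, Kif20a (1.31) was above background on 3 of the 6 SMA motor column arrays and was tested through DRG alone. In SMA raphe 23 passed (6 higher, 17 lower, background 39.4%, of it 15.6% higher and 23.8% lower). Kif16b, a kinesin-3 of endosomes named after its values were seen, was not above background on any SMA motor column array and was at least 4.52-fold higher in SMA DRG, through which alone it was tested. In WT mice it was above background on 1 LMC array and 2 MMC arrays, and DRG differed by 1.13 without passing (1.69 without the third WT MMC array).

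**Figure D3:**
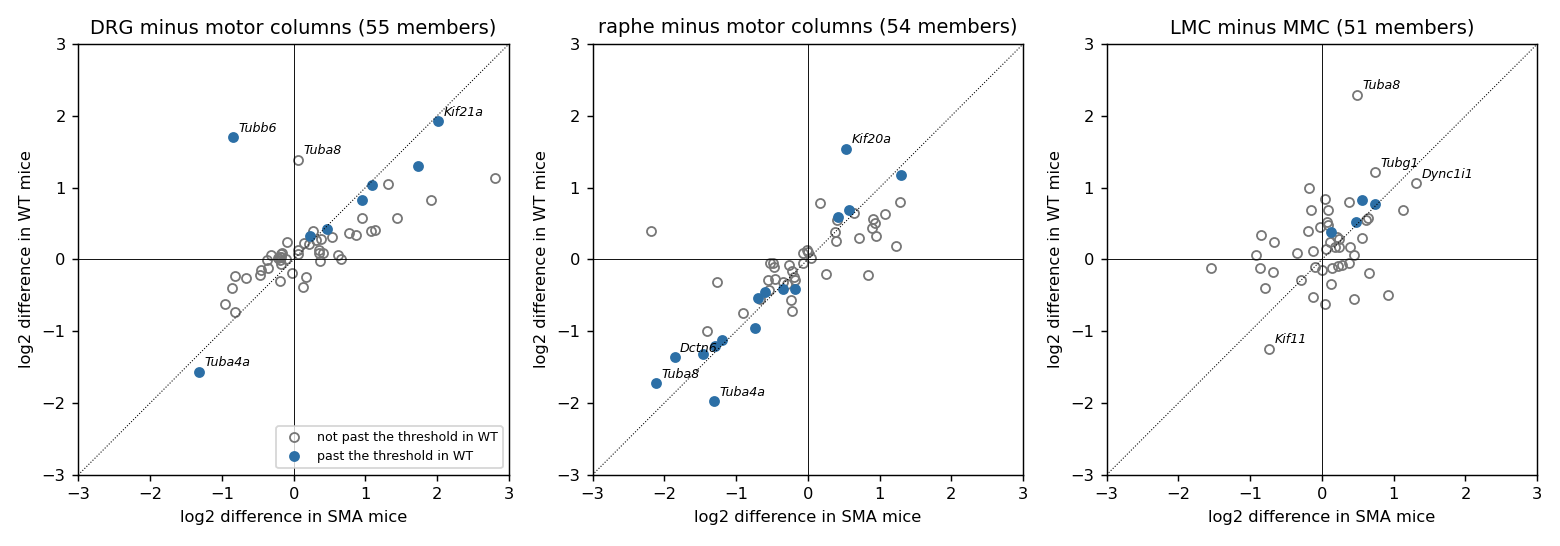
Log2 tissue differences of members in SMA mice (horizontal) and WT mice (vertical), with filled points for members past the threshold in WT and a dotted line of equality. All 15 filled raphe points have the same sign in both genotypes, 7 of the 8 filled DRG points do, and Tubb6 is the exception at -0.85 in SMA and 1.70 in WT mice.

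In WT LMC against WT MMC, 4 of 51 members were higher and 0 lower, or 7.84% against 3.42% of all genes called, 1.88% called higher and 1.54% called lower. They were Tubb4b (0.83 ± 0.202, adjusted p = 0.0225), Tuba4a, Tubb5 (0.38 ± 0.101, adjusted p = 0.0358) and the light chain Dynlt3 (0.52 ± 0.145, adjusted p = 0.0491). Tubb4b had 12.12, 12.19 and 12.35 in WT LMC, against 10.82, 11.75 and 11.59 in WT MMC. Dynlt3 had 11.93, 12.12 and 12.11 in WT LMC, against 11.73, 11.67 and 11.20 in WT MMC. The columns did not overlap for any of the 4, and 22 of the 51 members did not overlap, against 26.3% of all genes. The median of all genes was 0.15 in this contrast, and 0.33 with median centring. The calls lie close to the threshold: without 1 array the count ranged from 0 to 6. Without the third WT MMC array it was 2, Tubb4b and Tubb5. The Tubb5 call was lost with the deposited normalized values (adjusted p = 0.0913) and without the filter on dim probes (adjusted p = 0.0783). It was also lost with the mean of all detected probes (0.08, adjusted p = 0.851). The other Tubb5 probe, above background on 4 arrays, gave -0.22. In SMA mice 5 of 53 members passed (background 8.34%, of it 5.14% higher and 3.2% lower), all higher in LMC, including Tuba4a (0.74) and Dynlt3 (0.47). The others were Kif1b (0.44), Tubb2a (0.38) and Dync1i1 (1.31). Without the second SMA LMC array none of these 5 passed, with Tuba4a at 0.69, Dynlt3 at 0.28, Kif1b at 0.31, Tubb2a at 0.26 and Dync1i1 at 1.01. The 1 member that then passed was Dynll1 (0.52, adjusted p = 0.0271), an alternative added after seeing the data. It left 17 members in SMA DRG and 27 in SMA raphe.

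Glial markers also differed among the tissues, and not all lists differed alike. In WT LMC against MMC the 4 oligodendrocyte markers tested were all lower (3 passed, median -3.01), and the mean level of the 7 markers lay between 5.83 and 6.73 in WT LMC and between 7.81 and 8.31 in WT MMC. In raphe 5 of 6 tested were higher than in the motor columns, with a median of 2.30, and all 10 motor neuron markers were lower, with a median of -3.06. In DRG 4 of 6 markers of Schwann cells and satellite glia were higher. The mean level of the 8 astrocyte markers lay between 9.43 and 9.83 in WT raphe and between 9.51 and 10.05 in WT MMC. It lay between 9.01 and 9.15 in WT LMC and between 6.33 and 7.21 in WT DRG. The part of these cells in the members' differences was not tested.

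In SMA against WT, no member passed in any tissue. In MMC 0 of 52 members tested passed, against 1.28% of all genes, and 8 had an unadjusted p under 0.05, against 14.7% of all genes. In LMC 0 of 52 passed (background 0.0221%) and 6 had an unadjusted p under 0.05 (background 6.82%). In DRG 0 of 55 passed (background 0.0101%) and 1 had an unadjusted p under 0.05 (background 1.41%). In raphe 0 of 55 passed (background 0.244%) and 4 had an unadjusted p under 0.05 (background 6.91%). The mean over the 4 tissues (0 of 57, background 0.0536%) and the F test of whether genotype differences differ among tissues (0 of 57, background 0.0626%) gave 4 members each at an unadjusted p under 0.05 (background 6.24% and 6.96%). Members whose SMA and WT arrays did not overlap numbered 12 in MMC (background 14.6%), 5 in LMC (10.2%), 1 in DRG (8.61%) and 7 in raphe (14.5%). In MMC the median difference of the tested members was 0.03, against 0.06 over all genes, and in LMC it was -0.04 against 0.03. The medians in DRG were -0.04 for members and -0.03 for all genes, and those in raphe -0.08 and -0.02.

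**Figure D4:**
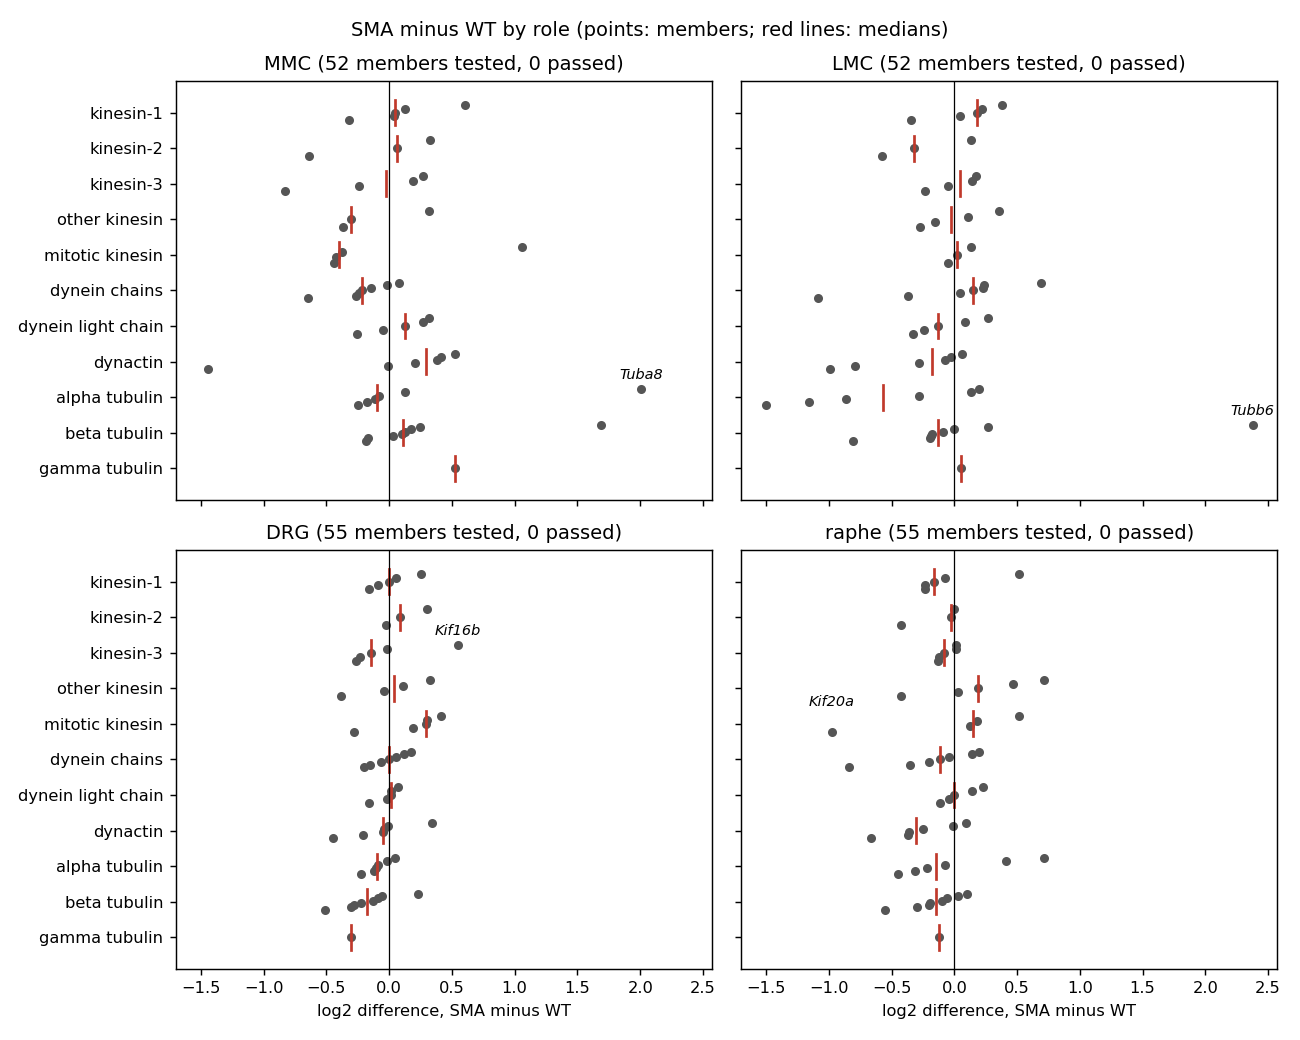
Log2 differences of SMA minus WT in each tissue, by role, with 1 point per member tested and a red line at the median of each role. No member passed in any tissue, most points lie near 0, and the farthest are Tuba8 at 2.01 in MMC and Tubb6 at 2.38 in LMC.

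Tubb6, a beta tubulin of many tissues outside the nervous system, came nearest. In LMC it had 7.98, 8.91 and 7.75 in SMA mice, against 5.50, 6.81 and 5.20 in WT mice. In MMC it had 6.72, 7.61 and 7.07 in SMA mice, against 5.83, 5.92 and 4.57 in WT mice. SMA arrays lay above WT arrays in both columns, and 2 of the 3 WT arrays of each column were above background. The differences were 2.38 ± 0.481 in LMC (SE, adjusted p = 0.112) and 1.69 ± 0.481 in MMC (adjusted p = 0.0832). In DRG it had 7.03, 6.96 and 6.48 in SMA mice, against 7.75, 7.40 and 6.87 in WT mice, a difference of -0.52. In raphe it had 5.07, 5.16 and 6.22 in SMA mice, against 5.94, 6.43 and 5.74 in WT mice, a difference of -0.56. The groups overlapped in both.

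Tubb6 also had the smallest p among members for a difference of genotype effects among tissues (unadjusted p = 0.000238, adjusted p = 0.158). In SMA mice Tubb6 was lower in raphe than in the motor columns by -2.19 ± 0.417, and in WT mice it was higher in DRG than in the motor columns by 1.70 ± 0.417. Both passed, but 2 of the 3 SMA raphe arrays and 4 of the 6 WT motor column arrays were above background, so each was tested through 1 side alone. In LMC it passed with the authors' deposited normalized values (adjusted p = 0.0437), with an offset of 50 (adjusted p = 0.0498), without the third SMA LMC array (adjusted p = 0.0475) and without the second WT LMC array (adjusted p = 0.0313). Over all alternatives its adjusted p lay between 0.0313 and 0.860 in LMC and between 0.0521 and 0.406 in MMC. Without the second SMA LMC array the LMC difference was 2.03, and without the third WT MMC array the MMC difference was 1.26. The array holds 1 Tubb6 probe. Among the oligodendrocyte, astrocyte, microglial, Schwann cell, endothelial, ependymal and dividing cell lists, 0 genes passed for SMA against WT in either column. Of all genes, 0.0221% passed in LMC and 1.28% in MMC, so lists this short could hardly yield a call. Mmp9 and Chodl, of the motor neuron list, passed in MMC. The part of cell make-up in the Tubb6 values was not tested.

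**Figure D5:**
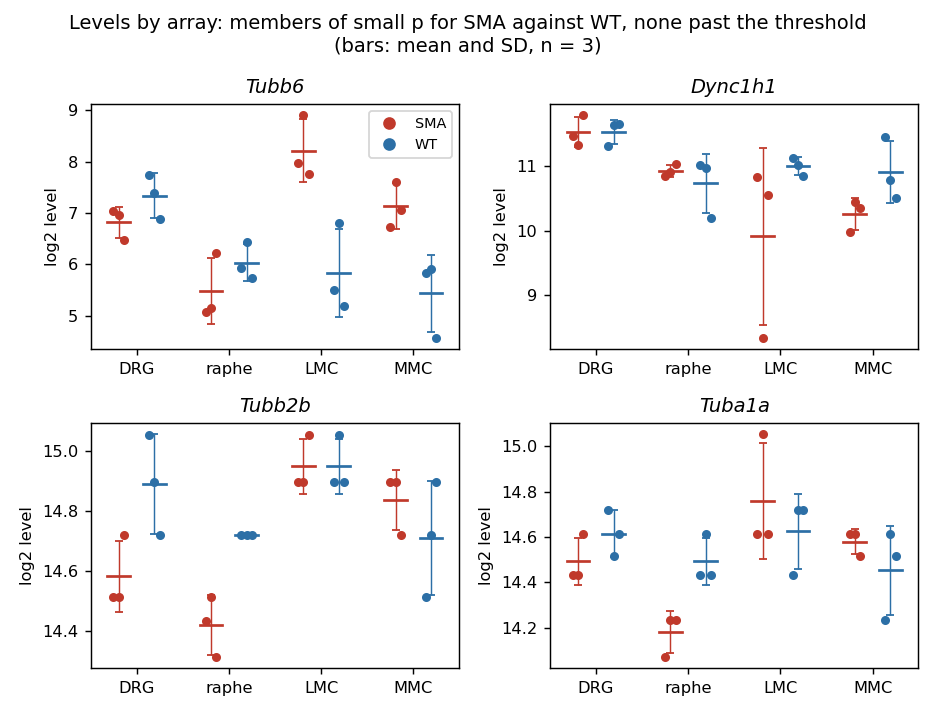
Log2 levels of 4 members with small unadjusted p-values for SMA against WT or for its difference among tissues, 1 point per array, with SMA (red) left of WT (blue) and bars for the mean and SD of 3 arrays. Tubb6 is higher on all SMA arrays of LMC and MMC, the low SMA LMC value of Dync1h1 is 1 array at 8.34, and Tubb2b and Tuba1a are lower on all SMA raphe arrays.

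Dync1h1 had lower values in SMA than in WT motor columns, without passing. In LMC it had 10.83, 8.34 and 10.55 in SMA mice, against 11.12, 11.01 and 10.85 in WT mice (-1.08 ± 0.397, adjusted p = 0.707). The second SMA LMC array sets most of this, and without it the difference was -0.30. In MMC it had 9.98, 10.44 and 10.34 in SMA mice, against 11.44, 10.77 and 10.50 in WT mice (-0.65), and the groups did not overlap. Without the 2 arrays that stand apart it was the only member to pass in MMC (-0.85, adjusted p = 0.0457 by limma), an alternative added after seeing the data. In DRG and raphe its SMA and WT means differed by -0.004 and 0.19. Dctn1, the large dynactin subunit that binds dynein, had 9.33, 4.83 and 4.54 in SMA MMC, against 7.65, 7.57 and 7.80 in WT MMC. The 2 low SMA arrays were not above background, and without the first SMA MMC array, where Dctn1 passed, no SMA MMC array was above background.

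Differences of several tubulins rested on 1 array. In LMC Tuba1b had 12.38, 8.90 and 12.32 in SMA mice, against 12.44, 12.34 and 12.30 in WT mice, a difference of -1.16 that became -0.01 without the second SMA array. Tuba3a had 9.51, 4.71 and 9.30 in SMA LMC, against 9.30, 9.13 and 9.61 in WT LMC. Its difference was -1.50 with all arrays and 0.06 without that array. Tuba3b differed by -0.86 with all arrays and by 0.09 without it. Tubb4a, a beta tubulin, differed by -0.80 with all arrays and -0.06 without it. Alpha and beta tubulin genes have near copies in the genome, so a probe may read more than 1 of them.

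Other members that did not overlap in MMC, without passing, included Dctn4 (0.41), Klc4 (0.61) and Tubb5 (0.17), with higher SMA values, and the kinesin-2 motor Kif3b (-0.64), Kif1b (-0.24) and the light chain Dynlrb1 (-0.26), with lower ones. Kif3b had 8.53, 8.89 and 8.94 in SMA MMC, against 9.22, 9.44 and 9.60 in WT MMC. Other Kif1b probes differed in sign in MMC, with 1.00, 1.01 and 0.12 above 0 and -0.69, -0.41, -0.16 and -0.01 below. Tuba8 had the largest difference in MMC, 2.01, but its WT arrays read 8.09, 9.01 and 4.68, and without the third the difference was 0.72. In LMC the groups did not overlap for Tubb2a (0.27), Kif3a (-0.58) or Tuba4a (-0.28). Without the second SMA LMC array these values were 0.15, -0.49 and -0.33. Tuba4a had 10.64, 10.74 and 10.52 in SMA LMC, against 10.95, 10.89 and 10.90 in WT LMC. The motor subunits of kinesin-1 showed no difference past the threshold, with Kif5a at -0.35 in LMC and 0.05 in MMC, Kif5b at 0.38 and 0.13, and Kif5c at 0.18 and 0.04. Without the second SMA LMC array the LMC values were -0.02 for Kif5a, 0.10 for Kif5b and -0.04 for Kif5c. Without the third WT MMC array the MMC values were 0.09, 0.30 and 0.08.

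In raphe, Tubb2b and Tuba1a, the main tubulins of growing neurons, were lower on every SMA array by the probe used, without passing. Tubb2b had 14.43, 14.51 and 14.32 in SMA raphe, against 14.72, 14.72 and 14.72 in WT raphe (-0.30 ± 0.0903, unadjusted p = 0.00306 by limma, adjusted p = 0.296). Tuba1a had 14.07, 14.23 and 14.23 in SMA raphe, against 14.43, 14.61 and 14.43 in WT raphe (-0.31 ± 0.109, adjusted p = 0.410). The other Tuba1a probe gave 0.14, and of 5 other Tubb2b probes 4 lay below 0, between -0.38 and -0.07, and 1 at 0.26. Tubb2b was also the single member with an unadjusted p under 0.05 in DRG, at 14.51, 14.51 and 14.72 in SMA mice, against 15.06, 14.90 and 14.72 in WT mice (-0.31 ± 0.0903, unadjusted p = 0.00247 by limma). Its 5 other probes gave -0.51 to -0.12 there. The Tubb2b and Tuba1a probes ranked between 3 and 13 of 45281 on every array, and quantile normalization gives the same level to the same rank. Beside this, the mean level of the 7 serotonergic markers lay between 9.57 and 9.77 in SMA raphe and between 8.77 and 9.20 in WT raphe. Differences of the 6 tested were above 0 with 0 passing (median 0.63), and their part in the result was not tested. Kif2a in raphe had 11.11, 11.00 and 11.06 in SMA mice, against 11.35, 11.37 and 11.72 in WT mice (-0.42, adjusted p = 0.582), while its other probes gave 0.39 and -0.04. Kif20a had 6.16, 6.17 and 6.02 in SMA raphe, against 6.96, 7.22 and 7.09 in WT raphe (-0.98, adjusted p = 0.701).

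Other genes of the pathway were read from a pair of lists. Of 28 adaptors and regulators of the motors on the array, 24 or 25 were tested per tissue and 0 passed for SMA against WT. Nearest in raphe was Hap1, which links huntingtin to dynactin and kinesin, at 0.91 ± 0.287 (adjusted p = 0.323). In MMC it was Hook2, a dynein adaptor, at 1.78 (adjusted p = 0.217). Of 30 factors that fold, modify or sever tubulin, 23 to 26 were tested and 0 passed. Nearest was Stmn1, which sequesters tubulin dimers, at 0.48 ± 0.133 in MMC (adjusted p = 0.0708). Spast, the severing enzyme spastin, differed by -1.01 in MMC (adjusted p = 0.231). In WT raphe against the motor columns 11 of 25 adaptors passed, 3 higher and 8 lower, and 7 of 24 tubulin factors passed, 6 higher and 1 lower, beside 29% of all genes. Some neuronal genes outside the transport family did pass for SMA against WT by limma. Of the 10 motor neuron markers, Mmp9 (-2.16, adjusted p = 0.0123) and Chodl (-1.34, adjusted p = 0.0251) fell in SMA MMC. In that comparison 1.28% of all genes passed. Isl2 of the same list (0.67, adjusted p = 0.331) and the general neuronal marker Elavl3 (0.56, adjusted p = 0.258) were higher there without passing. The neurofilament gene Nefl fell over the 4 tissues (-0.59, adjusted p = 0.0110), where 0.0536% of all genes passed.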

How the data were processed

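RNA of 8 groups of 3 mouse samples was measured on single-colour Illumina bead arrays. The authors deposited a non-normalized table of probe intensity with a detection p-value for each probe, per the file headers. A second deposited table holds log2 values that the authors had normalized. Scanner values were read in GenomeStudio, per the submitters' processing notes, and no version is given in the sources used here. Of 45281 probes, 34885 had 1 gene symbol, 18 had several and 10378 had none in the platform annotation, and the last 2 classes were not named.

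Intensities were background-corrected with normexp, using the detection p-values (nec in limma 3.58.1, R 4.3.3, offset 16), quantile-normalized and taken to log2. Each gene is represented by its probe of highest mean deposited signal. Probes with a detection p under 0.05 on all 3 arrays of at least 1 compared group were tested. One limma fit held all 8 group means (16 residual degrees of freedom, mean-variance trend), with Benjamini-Hochberg adjustment over all genes tested. The procedure was tested on simulated data. Precision is limited by the number of arrays, 3 per group.

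The members and lists were chosen with earlier results of these data known. Named members were those of smallest p among non-overlapping groups in each direction, those with the largest differences past the threshold between WT tissues, and a fixed list of well-known motors and tubulins. Arrays were treated as unpaired. Correlations of deviations between SMA and WT arrays of the same number and tissue lay between -0.09 and 0.32. Between tissues of 1 genotype, arrays of the same number gave values between -0.38 and 0.21. These values cannot exclude that tissues came from the same mice. Alternatives were the deposited normalized values, other offsets, filters, scaling and probe choices, array weights, no trend, a replicate block and leaving out each array.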

Additional observations from a re-analysis of the deposited data

How the results depend on the processing

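For single genes, 8433 alternative values of 238 results were computed: 7932 kept their direction and their side of the threshold, 101 lost a call, 63 gained one, 332 changed sign without a call and 5 reversed. The reversed ones were, with median centring, Tubb2b (-0.36) and Tubb5 (-0.13) in WT DRG and Tubb2a (-0.45) and Tubb5 (-0.44) in WT raphe, and, with the mean of all detected probes, Tuba1a in WT raphe (0.39). The cause was not tested. For SMA against WT, 1 member passed in LMC with deposited normalized values or an offset of 50 (Tubb6), 1 in DRG with array weights (Tubb2b), and 1 in MMC without the arrays of lowest correlation (Dync1h1). In WT LMC against MMC, 7 passed with median centring, 1 without a filter on dim probes, 0 without the trend and 9 without the arrays of lowest correlation. With array weights 38 passed the WT F test, 27 in DRG and 23 in raphe, and 35 passed the F test without the arrays of lowest correlation. For the alternatives, here, above and below, the share of all genes that passed is not given. Such counts therefore do not set the members apart from other genes.

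Leaving out 1 array gave 0 to 2 members for SMA against WT in MMC (2 without the second WT MMC array, Kif16b and Tuba8), 0 to 1 in LMC, and 0 in DRG and raphe. It gave 25 to 33 in the SMA F test, 18 to 31 in the WT F test, 0 to 6 in WT LMC against MMC (0 without the second or the third WT LMC array), 7 to 13 in WT DRG (13 without the second SMA LMC array) and 10 to 22 in WT raphe. With the replicate number as a block, 0 members passed for SMA against WT in each tissue, 33 passed the SMA F test and 22 the WT F test, and 4, 9 and 15 passed in WT LMC against MMC, DRG and raphe.

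With 3 arrays per group, a member near background, such as Tubb6 in WT motor columns, is measured with little precision. Kif5a, Kif3a, Kif13b, Kif2a, Kif1a, Kif1b, Kif23, Klc1, Tuba1a, Dync1i1, Dctn2 and Dynll2, among others, differ between probes.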
